A study of Mus musculus with 8 samples.

Results

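Macrophages of obese fat that surround dead adipocytes and load themselves with lipid are called lipid-associated macrophages. The 10 genes described here, Trem2, Cd9, Spp1, Gpnmb, Itgax, Lgals3, Cd63, Mmp12, Atp6v0d2 and Ctsk, are commonly used to mark them. They were listed by symbol and matched to their Ensembl gene identifiers, and all 10 were found among the 55487 gene identifiers of the deposited tables. RNA was sequenced from epididymal white adipose tissue, the visceral fat pad beside the epididymis, of 8 male C57BL/6 mice made obese on a high-fat diet. The 4 AKO mice (numbers 3, 8, 9 and 11 in the labels) carry AP2-cre and floxed copies of Slc16a1 on both chromosomes, and their labels give the genotype as Slc16a1 -/-. The 4 WT mice (numbers 2, 3, 4 and 5) carry the same Slc16a1 flox/flox alleles without Cre, so the controls are floxed too. In AP2-cre the recombinase is under control of the Fabp4 promoter, Fabp4 being a fatty acid binding protein gene. This gene is active in adipocytes and is known to be active in macrophages as well, and which cells of these pads expressed Cre was not measured. The sources used here state neither age nor time on the diet.

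TREM2 is a surface receptor for lipids and lipoproteins that signals through the adaptor DAP12, the product of Tyrobp, and in mice it is needed for the lipid-associated state in obese fat. The genes of this state encode surface proteins, proteins that acidify and digest the content of lysosomes, and secreted proteins that act on the matrix. Several of them (Ctsk, Atp6v0d2, Gpnmb and Spp1) are also known from osteoclasts, the macrophage relatives that digest bone. The question for these mice is whether the genes differed between fat pads of obese AKO and WT mice, and how far they moved together from mouse to mouse. In whole tissue, fewer cells of a type and less RNA per cell cannot be told apart.

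Values are TPM (transcript abundance scaled for transcript length and to a fixed total per library), summed over the rows of each gene, and TPM keeps no read depth. Slc16a1 itself, the gene meant to be deleted, had 22.4, 21.5, 27.1 and 25.0 TPM in AKO mice 3, 8, 9 and 11, against 23.4, 28.5, 15.7 and 17.6 TPM in WT mice 2, 3, 4 and 5. Its total was therefore not lower in the libraries labelled AKO (log2 change 0.19, 95% interval -0.21 to 0.60, limma FDR = 0.850), so the total does not check the genotype, and AKO and WT stand for the labels throughout. Its 2 rows differed: row 1 had 8.80, 7.71, 4.51 and 5.43 TPM in AKO mice 3, 8, 9 and 11, against 10.8, 14.0, 15.7 and 17.6 TPM in WT mice 2, 3, 4 and 5, with every AKO mouse below every WT mouse. Row 2 had 13.6, 13.8, 22.5 and 19.6 TPM in AKO, against 12.5, 14.4, 0 and 0 TPM in WT, and is thus listed at 0 in WT mice 4 and 5. With each gene read from its highest row alone, row 2 here, the log2 change was 2.24 (limma FDR = 0.835). Which transcripts the rows stand for, and whether they hold the deleted part, is unknown, and the rows were looked at after the values were seen. Between 13968 and 14884 genes per library reached 1 TPM, and mitochondrial genes held 6.73% to 9.04% of TPM. Rows above 0 numbered 66578 to 70720 in AKO libraries and 63143 to 66466 in WT libraries, a separation of the groups whose part in the results was not tested. WT mouse 4 stood apart from the other 7 mice with the lowest macrophage and the highest adipocyte gene levels, as described with the results it touches.

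The promoters of these genes are shown because their levels moved together. RefSeq (GRCm38.p6) windows of 250 bases before and 50 after the annotated start were at hand for 9 of the 10 genes, in 11 entries since Spp1 and Mmp12 have more than 1 start. Both strands were searched for letters of 4 motifs: GAGGAA, the core bound by the macrophage factor PU.1; TGANTCA, bound by AP-1; and CACGTG and TCATGTG, the E-box and M-box bound by factors of the MITF and TFEB family. The letters GAGGAA were found in 5 of the 11 entries and in 28.3% of all 32851 promoter entries of that length. TGANTCA was found in 4 of the 11 and in 7.81% of all. The M-box was found in 1 of the 11, against 3.77% of all, and the E-box in 0 of the 11, against 7.15% of all. These matches describe the letters and are not evidence of binding. The stretches with 120 bases before and 30 after the start are given for the 4 entries with an AP-1 match and for Ctsk, the gene with the smallest p among the 10. All lie on the plus strand, at chr17:48346281-48346430 for Trem2, chr6:49036398-49036547 for Gpnmb, chr7:128129430-128129579 for Itgax, chr9:7347254-7347403 for a start of Mmp12 and chr3:95499090-95499239 for Ctsk. Capitals mark the motif matches.
Trem2: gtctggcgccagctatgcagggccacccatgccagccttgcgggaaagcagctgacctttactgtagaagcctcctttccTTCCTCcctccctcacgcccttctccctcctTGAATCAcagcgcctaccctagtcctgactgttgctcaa
Gpnmb: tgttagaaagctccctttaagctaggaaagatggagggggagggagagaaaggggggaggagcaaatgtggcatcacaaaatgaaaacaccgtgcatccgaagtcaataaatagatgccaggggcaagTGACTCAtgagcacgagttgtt
Itgax: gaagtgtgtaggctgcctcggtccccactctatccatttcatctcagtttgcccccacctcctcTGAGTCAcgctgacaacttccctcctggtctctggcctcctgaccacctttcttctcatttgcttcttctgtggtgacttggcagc
Mmp12: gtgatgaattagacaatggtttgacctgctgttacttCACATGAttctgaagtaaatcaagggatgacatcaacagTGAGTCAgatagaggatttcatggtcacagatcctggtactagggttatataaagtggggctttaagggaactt
Ctsk: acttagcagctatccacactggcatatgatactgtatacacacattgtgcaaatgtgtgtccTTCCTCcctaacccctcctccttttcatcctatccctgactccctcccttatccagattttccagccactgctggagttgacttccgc
In the Trem2 stretch a PU.1 core (on the minus strand) begins 40 bases and an AP-1 motif 9 bases before the start. The AP-1 motif begins 8 bases after the start in Gpnmb and 56 bases before it in Itgax. The Mmp12 stretch holds an M-box (minus strand) 83 bases and an AP-1 motif 44 bases before this start, and that of Ctsk a PU.1 core (minus strand) 58 bases before it.

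Levels of the 10 genes ran from 5.82 TPM for Spp1 in WT mouse 4 to 2847 TPM for Lgals3 in AKO mouse 9. Over the 8 mice the order of mean level was Lgals3, Mmp12, Gpnmb, Cd63, Trem2, Ctsk, Cd9, Atp6v0d2, Itgax and Spp1. Lgals3 averaged 1748 TPM and Spp1 66.4 TPM. Lgals3 lay above Mmp12, Mmp12 above Gpnmb, Cd63 above Trem2, Trem2 above Ctsk, Cd9 above Atp6v0d2, and Atp6v0d2 above Itgax in 8 of 8 mice. Gpnmb and Cd63 did not keep an order, with Gpnmb above Cd63 in 5 of 8 mice, and neither did Ctsk and Cd9, with Ctsk above Cd9 in 5 of 8. The 10 genes together held 0.733%, 0.493%, 0.863% and 0.439% of TPM in AKO mice 3, 8, 9 and 11, against 0.383%, 0.729%, 0.126% and 0.326% in WT mice 2, 3, 4 and 5. WT mouse 3 thus held nearly as large a share as AKO mouse 3, and WT mouse 4 the smallest share of the 8.

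**Figure D1:**
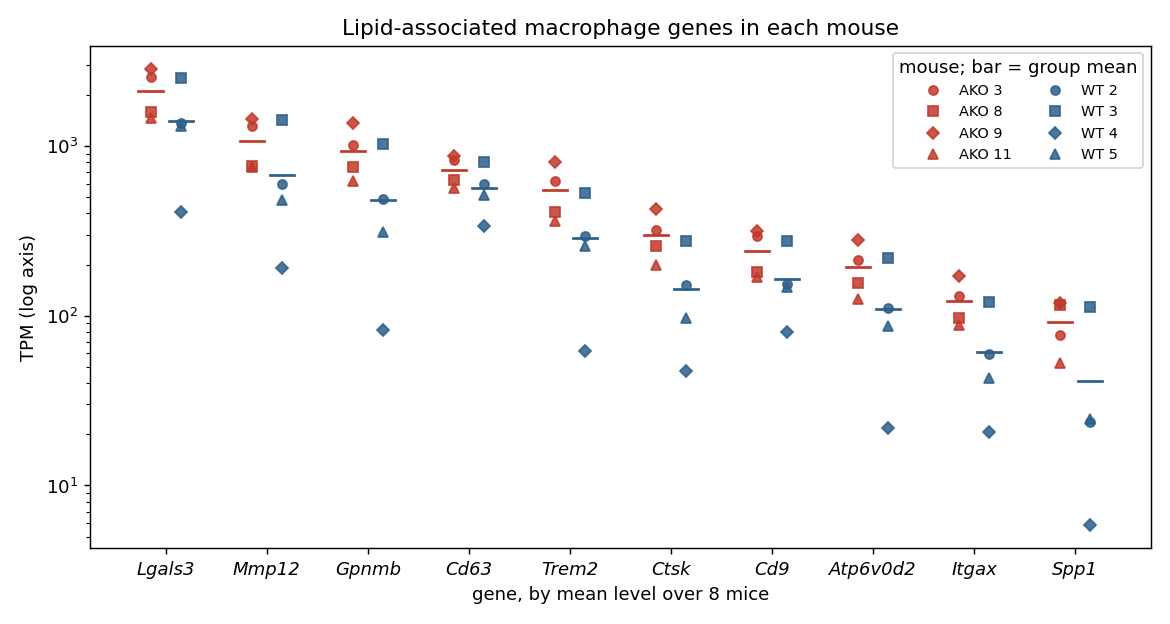
TPM on a log axis for each of the 10 genes in each mouse (AKO in red, WT in blue, 1 symbol per mouse) with the group mean as a bar. AKO mouse 9 is highest and WT mouse 4 lowest for all 10 genes, and WT mouse 3 lies among the AKO mice for each.

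Among the surface proteins, Trem2, the lipid receptor gene whose promoter stretch holds a PU.1 core and an AP-1 motif, had 623, 407, 801 and 363 TPM in AKO mice 3, 8, 9 and 11, against 295, 527, 62.2 and 256 TPM in WT mice 2, 3, 4 and 5. The groups overlapped: WT mouse 3 exceeded AKO mice 8 and 11. The Trem2 mean was 1.92 times as high in AKO, with a log2 change of 1.22 and a 95% interval of -0.13 to 2.57. Itgax encodes the integrin subunit CD11c, which marks lipid-associated macrophages and also dendritic cells. It had 130.2, 96.6, 170.4 and 88.4 TPM in the AKO mice, against 59.5, 121, 20.7 and 42.7 TPM in the WT mice, in the same order of mice. Its log2 change was 1.20 (95% interval 0.13 to 2.28), and WT mouse 3 again lay above AKO mice 8 and 11. Dendritic cell markers had a summed level of 19.3 to 23.9 TPM in AKO and 20.0 to 28.3 TPM in WT, with Xcr1 below the filter. In WT mouse 4 that sum, 25.7 TPM, was above the level of Itgax, and the part of dendritic cells in the Itgax values was not tested. Gpnmb, a transmembrane glycoprotein of lysosomes and the cell surface, had 1008, 755, 1368 and 618 TPM in AKO, against 486, 1029, 81.9 and 312 TPM in WT. Its level in WT mouse 3 exceeded those of AKO mice 3, 8 and 11, and that in WT mouse 4 was the lowest of the 8. The log2 change of Gpnmb was 1.41 (95% interval -0.13 to 2.95).

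The tetraspanins Cd9 and Cd63, membrane proteins of vesicles and of many cell types, had the smallest differences of the 10. Cd9 had 293, 182, 315 and 169 TPM in AKO, against 154, 275, 80.2 and 148 TPM in WT. Cd63 had 822, 629, 874 and 568 TPM in AKO, against 599, 806, 337 and 514 TPM in WT. Their log2 changes were 0.62 (95% interval -0.20 to 1.45) and 0.40 (95% interval -0.19 to 1.0). For Cd63, WT mouse 2 lay above AKO mouse 11, which is the 1 gene of the 10 where this was so. Over all 8 mice Cd63 spanned 2.59-fold and Cd9 3.93-fold from lowest to highest, the narrowest ranges of the 10.

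The lysosomal genes had the same highest and lowest mouse as the surface proteins. Atp6v0d2, the d2 subunit of the membrane part of the lysosomal proton pump, had 212, 155, 278 and 126 TPM in AKO mice 3, 8, 9 and 11, against 112, 218, 21.7 and 86.4 TPM in WT mice 2, 3, 4 and 5. WT mouse 3 lay above AKO mouse 3, and the log2 change was 1.15 (95% interval -0.25 to 2.55). Ctsk, the collagen-digesting protease cathepsin K, had 320.1, 256, 423 and 198 TPM in AKO, against 152, 276, 47.5 and 96.7 TPM in WT. WT mouse 3 lay between AKO mice 8 and 3 here, and the other WT mice below all AKO mice. The Ctsk log2 change was 1.28 (95% interval 0.17 to 2.39). Fibroblasts can also make cathepsin K. Fibroblast and progenitor markers had a summed level of 1621 to 2382 TPM in AKO and 1272 to 2283 TPM in WT, positive log2 changes for 6 of 6 genes, and their part in the Ctsk value was not tested.

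Of the secreted proteins, Spp1, which encodes the cytokine and matrix protein osteopontin, varied most. It had 77.3, 116, 119 and 53.0 TPM in AKO, against 23.6, 112, 5.82 and 24.5 TPM in WT, a 20.4-fold span over the 8 mice. WT mouse 3 stood with AKO mice 8 and 9 and the other WT mice lay below all AKO mice. The log2 change of Spp1 was 1.73 (95% interval 0.07 to 3.40), the largest of the 10. Lgals3, which encodes the carbohydrate-binding lectin known as Mac-2 on macrophages, had 2537, 1575, 2847 and 1451 TPM in AKO, against 1359.7, 2502, 409 and 1304 TPM in WT (log2 change 0.80, 95% interval -0.36 to 1.95). For the elastin-digesting macrophage protease Mmp12 the levels were 1309, 757, 1439 and 752 TPM in AKO, against 594, 1429, 192 and 478 TPM in WT (log2 change 0.94, 95% interval -0.29 to 2.18). WT mouse 3 was close to the highest mouse for Mmp12, and WT mouse 4 was far below the others for both genes.

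None of the 10 genes passed the test for a difference between AKO and WT, although all 10 had higher means in AKO. In limma over 14172 genes, with p-values adjusted over all of them by the Benjamini-Hochberg method, the FDR was 0.831 for each of the 10. At an FDR below 0.05, 0 of the 10 were higher, where 0.0212% of all genes tested were called higher, and 0 were lower, where 0.00706% were called lower. At an unadjusted limma p below 0.05, 3 of the 10 had higher values, Ctsk, Itgax and Spp1, where 2.58% of all genes did. The 2-sided exact permutation p over the 70 arrangements of the mice lay between 0.0857 and 0.200 for the 10 genes, before any adjustment, with the lowest value for these same 3. No gene of the 10 had every AKO mouse above every WT mouse, which 1.11% of all genes did. A log2 change above 0 was found for 10 of 10, against 53.8% of all genes, and the median log2 change was 1.17, against 0.02 over all genes. Because the 10 genes moved together from mouse to mouse, as given next, these signs are not 10 separate observations. A p that misses the threshold does not show equal levels: the 95% intervals reached up to 3.40 on the log2 scale for Spp1.

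**Figure D2:**
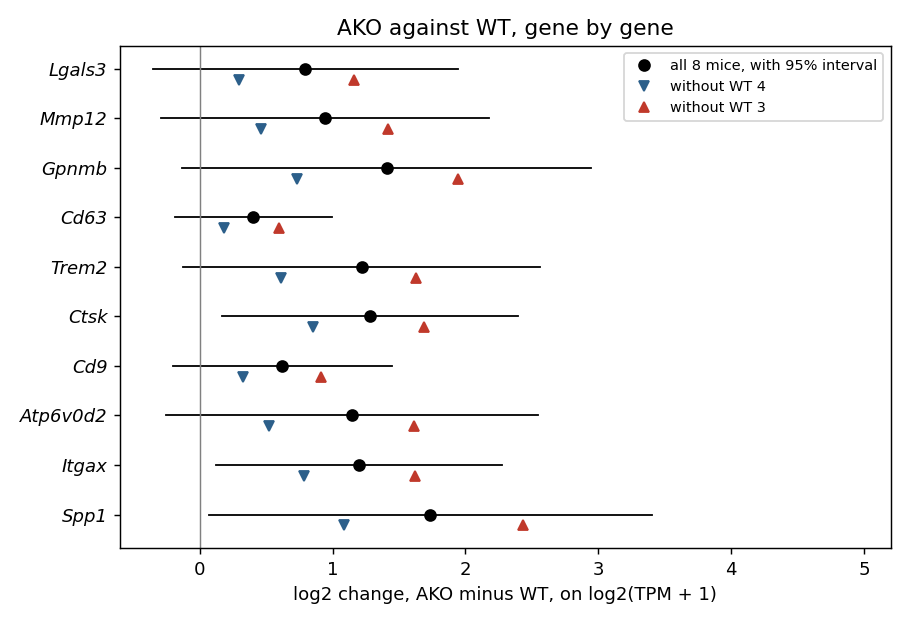
Log2 change of each gene, given as the AKO mean less the WT mean of log2(TPM + 1), with its 95% interval over all 8 mice (black) and the value without WT mouse 4 (blue) or WT mouse 3 (red). All values are above 0, and leaving out WT mouse 4 lowers every value. The limma intervals of Ctsk, Itgax and Spp1 exclude 0 before adjustment, with variances drawn toward a trend over all genes. The exact permutation p of each of these 3 was 0.0857.

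The size of the change rested on WT mouse 4. Without it the median log2 change of the 10 genes was 0.56, and 0 of the 10 had an unadjusted p below 0.05. Of all 14172 genes tested, 270 had higher values at that p. The log2 change was then 0.61 for Trem2, 0.73 for Gpnmb, 1.08 for Spp1, 0.85 for Ctsk, 0.79 for Itgax, 0.52 for Atp6v0d2, 0.46 for Mmp12, 0.33 for Cd9, 0.29 for Lgals3 and 0.18 for Cd63. WT mouse 3 acted the other way. Without it the median was 1.61 and all 10 had an unadjusted p below 0.05, with a smallest limma FDR of 0.323, for Spp1. The count over all 14172 genes tested rose too, to 1297 with higher values at that p, against 366 with all 8 mice. Leaving out WT mouse 5, or AKO mouse 3 or 9, also brought the count of the 10 at that p to 0. Over all genes the count higher was then 234, 243 and 209. Leaving out WT mouse 2 or AKO mouse 8 brought the count of the 10 to 2, with 365 and 289 over all genes. WT mice 3 and 4 carry the same label, and nothing in the labels sets either apart.

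Mice differed far more in these genes than in most others, and in nearly the same order for each gene. The pooled SD of log2(TPM + 1) within a group had a median of 0.88 over the 10 genes and 0.19 over all genes tested. For Spp1 1.02% of genes tested had as large an SD, for Gpnmb 1.24%, for Trem2 1.67%, and for Cd63, the steadiest, 13.2%. AKO mouse 9 was the highest mouse for 10 of 10 genes and WT mouse 4 the lowest for 10 of 10. WT mouse 3 ranked 2 or 3 of 8 for each of them. AKO mouse 11, the lowest of the AKO mice for 10 of 10, lay above WT mouse 2 for 9 of 10 and above WT mouse 5 for 10 of 10. From highest to lowest, AKO mice spanned 1.54-fold to 2.24-fold per gene. WT mice spanned 2.39-fold (Cd63) to 19.2-fold (Spp1), and 1.57-fold to 4.73-fold without WT mouse 4.

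**Figure D3:**
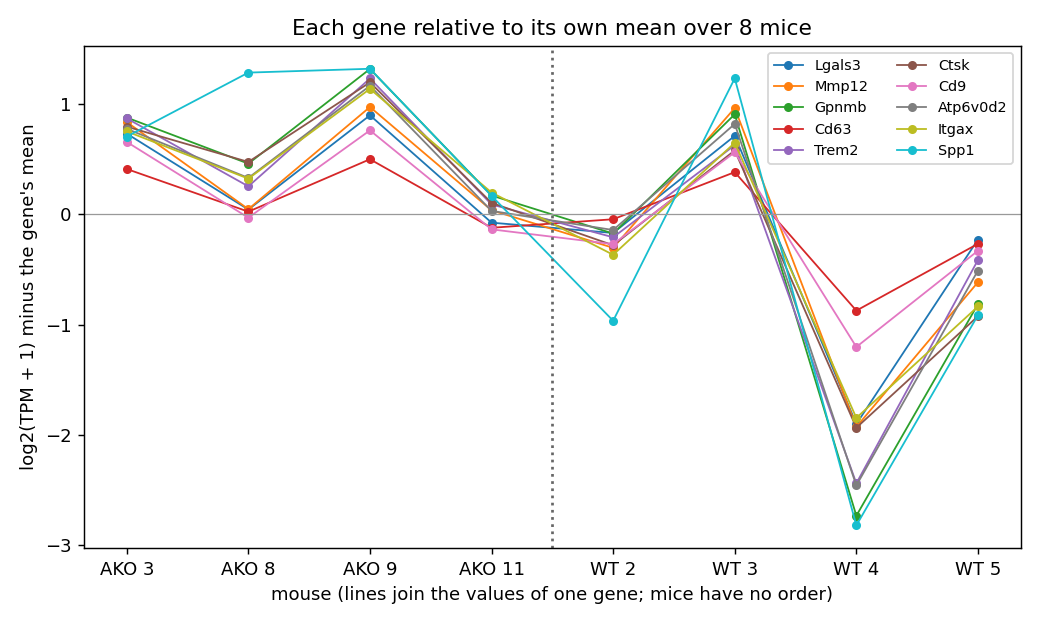
Log2(TPM + 1) of each gene minus its own mean over the 8 mice, with a line per gene and the AKO mice left of the dotted line. The 10 lines run nearly in parallel, with their lowest point in WT mouse 4, and differ mostly in depth; that of Spp1 departs in AKO mouse 8 and WT mouse 2.

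The likeness between genes is given as a description over the 8 mice, with no p, since the genes were chosen with earlier results known. Pearson's r between pairs of the 10 genes, on log2(TPM + 1), lay between 0.901 (Cd9 with Spp1) and 0.996 (Itgax with Ctsk) over the 45 pairs, with a median of 0.973. Spearman's rho lay between 0.833 (Spp1 with Cd63) and 1, with a median of 0.976. After centring each group on its own mean, so that the AKO and WT difference is removed, the median r was 0.975. In that form 41 of 45 pairs, 91.1%, reached 0.9, against 1.52% of all 100415706 pairs of genes tested, whose median r was 0.0250. WT mouse 4 and AKO mouse 9, the mice farthest from the median, were then left out. The 6 remaining mice gave a median r of 0.955 with centring, with the lowest, 0.716, for Cd9 with Spp1. Without centring the same 6 mice gave a median r of 0.945, with the lowest, 0.693, for Spp1 with Cd63. A single axis held 96.1% of the within-group variance of the 10 genes. All values of a mouse come from 1 library, so these points share the library and its composition.

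General macrophage genes, averaged per mouse, put the 8 mice in the same order as the 10 lipid-associated genes but over a narrower range. The listed markers had positive log2 changes in 12 of 12, with a median log2 change of 0.59 (0.34 without WT mouse 4, with 11 positive), and 0 passed an FDR of 0.05 in limma while 3 had an unadjusted p below 0.05. Their summed level was 3764 to 6671 TPM in AKO and 2287 to 5413 TPM in WT. Aif1, which encodes the actin-binding protein IBA1, had the smallest p, at 19.9 ± 3.08 TPM in AKO and 14.6 ± 1.92 TPM in WT (SD, n = 4), and every AKO mouse lay above every WT mouse. The perforin-like gene Mpeg1 had 295 ± 83.4 TPM in AKO and 170.5 ± 85.1 TPM in WT, and Ms4a7, a membrane protein gene of macrophages, 69.3 ± 25.5 TPM in AKO and 36.8 ± 23.7 TPM in WT. The mean log2(TPM + 1) of the 10 lipid-associated genes exceeded that of the 12 macrophage genes by 1.37, 1.14, 1.35 and 1.15 in AKO mice 3, 8, 9 and 11, against 0.92, 1.37, 0.005 and 0.74 in WT mice 2, 3, 4 and 5. The AKO mean of this difference was 1.25 ± 0.12 and the WT mean 0.76 ± 0.57 (SD, n = 4), and WT mouse 3 was level with AKO mouse 3. Both means were at their lowest in WT mouse 4 and were level there, at 6.07 for the lipid-associated and 6.06 for the macrophage genes. The gap of Cd63 in that mouse, 2.34, lay within the 1.99 to 2.36 of the other mice. That of Cd9, 0.28, lay within 0.25 to 0.75, while the other lipid-associated genes had their lowest gap there. Set against the macrophage mean in this way, the mean of the 10 had an AKO minus WT difference of 0.49. Spp1 kept a difference of 1.15, Gpnmb 0.83, Ctsk 0.70, Trem2 0.64 and Itgax 0.62. Atp6v0d2 had 0.57, Mmp12 0.36, Lgals3 0.21, Cd9 0.04 and Cd63 -0.18. Without WT mouse 4 the difference was 0.24 for the mean of the 10. It was then 0.74 for Spp1, 0.39 for Gpnmb, 0.51 for Ctsk, 0.27 for Trem2 and 0.45 for Itgax. For Atp6v0d2 it was 0.18, for Mmp12 0.12, for Lgals3 -0.05, for Cd9 -0.02 and for Cd63 -0.16. These differences were not tested.

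**Figure D4:**
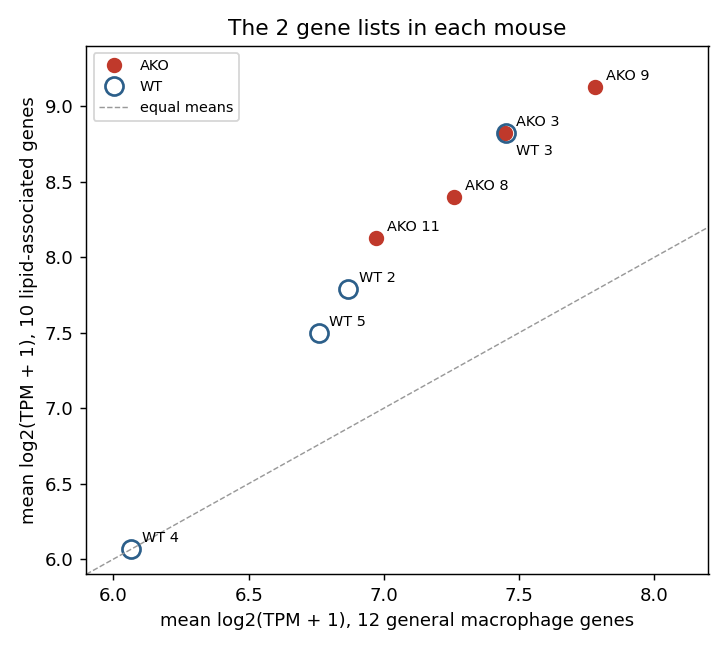
Mean log2(TPM + 1) of the 10 lipid-associated genes (vertical) against that of 12 general macrophage genes (horizontal), 1 point per mouse (AKO filled red, WT open blue), with a dashed line where both means are equal. The mice fall along a line steeper than the dashed one, from WT mouse 4 at the bottom to AKO mouse 9 at the top, and WT mouse 3 coincides with AKO mouse 3.

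Further genes of the lipid-associated state were positive in 23 of 24, with a median log2 change of 0.47 (0.19 without WT mouse 4, with 21 positive), and 0 passed the FDR threshold in limma (1 at an unadjusted p below 0.05). The exception in sign was Lpl, the lipoprotein lipase gene that adipocytes also express strongly, at 3912 ± 251 TPM in AKO and 4142 ± 488 TPM in WT. Hvcn1, a proton channel gene, had the smallest p, at 35.2 ± 4.89 TPM in AKO and 24.7 ± 4.62 TPM in WT. The lysosomal glycoprotein gene Creg1 had 179 ± 41.6 TPM in AKO and 122 ± 45.6 TPM in WT, and the cathepsin gene Ctss 1115 ± 266 TPM in AKO and 691 ± 358 TPM in WT. Apoe, the apolipoprotein gene, had equal means, at 6295 ± 1563 TPM in AKO and 6296 ± 1560.2 TPM in WT, and was chosen for mention after its value was seen. The genes of this list did not all share the spread of the 10: 14 of 24 reached an r of 0.9 with the mean of the 10 on group-centred values, against 6.29% of all genes tested, while Apoe had -0.435, Lpl -0.396 and Lgals1 -0.283.

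Genes of TREM2 signalling were positive in 9 of 9, with a median log2 change of 0.34 (0.09 without WT mouse 4) and 0 past the FDR threshold in limma (0 at an unadjusted p below 0.05). Tyrobp, the adaptor of TREM2, had 957, 736, 1131 and 588 TPM in AKO mice 3, 8, 9 and 11, against 511, 868, 249 and 474 TPM in WT mice 2, 3, 4 and 5, in the same order of mice as Trem2. The related adaptor gene Hcst had 16.2 ± 2.20 TPM in AKO and 11.9 ± 5.15 TPM in WT, and the kinase gene Syk, which acts after the adaptors, 63.0 ± 17.4 TPM in AKO and 45.4 ± 19.4 TPM in WT. The 4 genes of the MITF and TFEB family were positive in 4 of 4 (median 0.36, 0.19 without WT mouse 4, 0 past the FDR threshold in limma and 0 at an unadjusted p below 0.05). Mitf had 12.3 ± 3.45 TPM in AKO and 8.62 ± 2.35 TPM in WT, Tfe3 34.2 ± 7.22 TPM in AKO and 28.4 ± 5.49 TPM in WT and Tfeb 22.3 ± 5.18 TPM in AKO and 18.1 ± 5.38 TPM in WT.

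Other subunits of the proton pump were positive in 13 of 14, with a median log2 change of 0.23 (0.11 without WT mouse 4, with 12 positive), below the 1.15 of Atp6v0d2, and 0 passed the FDR threshold in limma (0 at an unadjusted p below 0.05). The exception in sign was Atp6v1e1, at 259 ± 19.1 TPM in AKO and 267 ± 11.7 TPM in WT. Subunit genes with the smallest p were Atp6v1f (257 ± 18.3 TPM in AKO and 211 ± 38.4 TPM in WT), Atp6v1b2 (269 ± 60.9 TPM in AKO and 197 ± 76.0 TPM in WT) and Atp6v1a (138 ± 35.8 TPM in AKO and 102 ± 42.4 TPM in WT). Of 11 tested genes shared with osteoclasts, 8 were positive and 3 negative (Mmp9, Ocstamp and Car2), with a median of 0.12 (0.09 without WT mouse 4). Of these, 0 passed the FDR threshold and 0 had an unadjusted limma p below 0.05. Tcirg1, a pump subunit gene known from osteoclasts, had 115 ± 35.1 TPM in AKO and 77.0 ± 37.9 TPM in WT, the chloride carrier gene Clcn7 41.6 ± 9.04 TPM in AKO and 33.1 ± 9.62 TPM in WT, and Tnfrsf11a, which encodes the receptor RANK, 13.3 ± 4.53 TPM in AKO and 9.85 ± 6.35 TPM in WT. Oscar and Calcr did not pass the filter on low values. Acp5, the acid phosphatase gene, had 398 ± 46.4 TPM in AKO and 374 ± 96.0 TPM in WT and was chosen for mention after its value was seen.

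Relatives of the 10 genes by family (other TREM receptors, tetraspanins, integrins, galectins, matrix proteases and cathepsins) were positive in 11 of 17 tested, with a median of 0.21 (0.09 without WT mouse 4), and 0 passed the FDR threshold in limma. The relatives with an unadjusted p below 0.05 were the matrix protease genes Mmp2 (95.4 ± 21.0 TPM in AKO and 57.2 ± 21.7 TPM in WT) and Mmp14 (75.0 ± 21.7 TPM in AKO and 48.5 ± 16.0 TPM in WT), which fibroblasts also express. The cathepsin gene Ctsh had 175 ± 20.8 TPM in AKO and 141 ± 28.4 TPM in WT. Trem1, Treml1, Treml2 and Pmel, the closest relative of Gpnmb, did not pass the filter on low values. Lgals1, another galectin gene, had 3648 ± 126 TPM in AKO and 3606 ± 457 TPM in WT, beside a log2 change of 0.80 for Lgals3, and was chosen for mention after its value was seen.

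The 8 tested genes most like the 10 in group-centred values, ranked by their r with the mean of the 10, were Nceh1, Cdk18, Tlr13, Ctsl, C5ar1, Gla, Galnt6 and Fam129b, with r between 0.995 and 0.998 over the 8 mice. Nceh1, a cholesterol ester hydrolase gene, had 58.2 ± 19.1 TPM in AKO and 38.4 ± 27.0 TPM in WT. On values not centred on group means, its r was 0.991 over 8 mice. In that form it was 0.962 over 6 mice, without WT mouse 4 and AKO mouse 9. Ctsl, a lysosomal cathepsin gene, had 2087 ± 399 TPM in AKO and 1413 ± 576 TPM in WT. Tlr13, an endosomal receptor for microbial RNA in mice, had 36.5 ± 13.3 TPM in AKO and 22.6 ± 16.6 TPM in WT, and C5ar1, the receptor gene for complement C5a, 95.3 ± 31.8 TPM in AKO and 69.0 ± 46.6 TPM in WT. Gla, a lysosomal galactosidase gene, had 30.5 ± 9.17 TPM in AKO and 20.1 ± 12.3 TPM in WT, and the kinase gene Cdk18 31.9 ± 12.8 TPM in AKO and 18.3 ± 15.1 TPM in WT. Each of the 8 had a positive log2 change, and none passed (limma FDR = 0.831 for each).

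**Figure D5:**
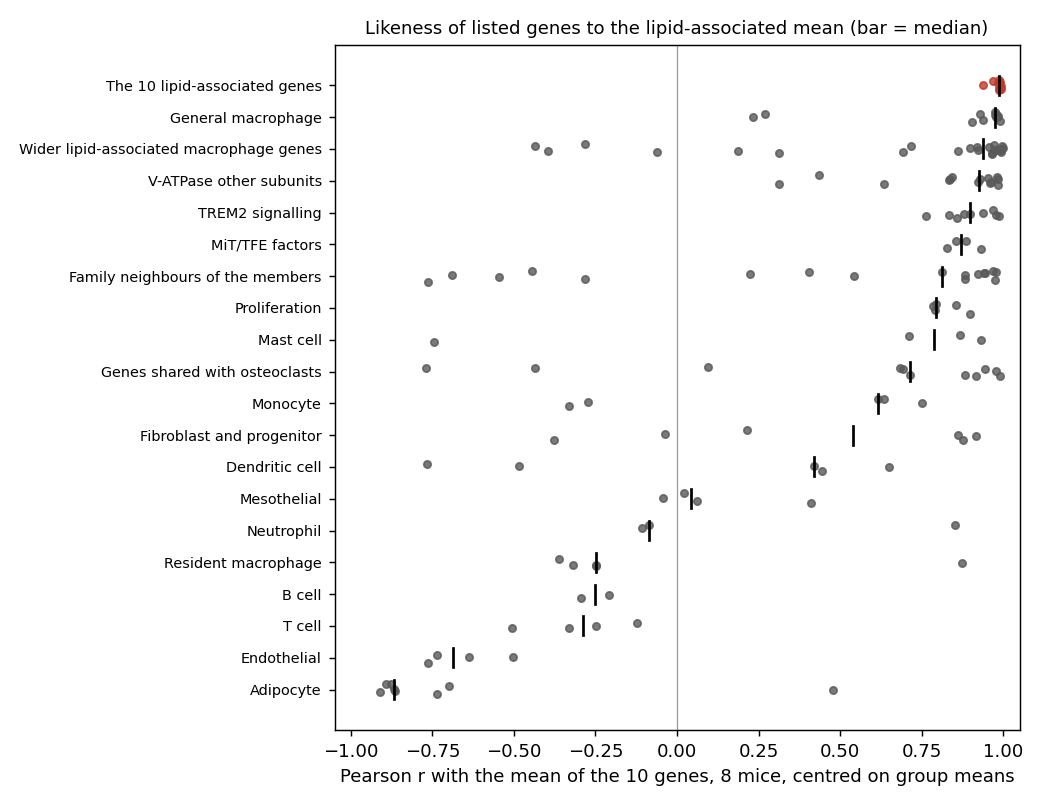
Pearson's r over 8 mice, on group-centred log2(TPM + 1), between each gene of a list and the mean of the 10 lipid-associated genes, with 1 point per gene and the list median as a bar. The 10 genes are themselves part of the mean; general macrophage genes have the next highest median, and adipocyte genes the lowest.

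By their median r, markers of other cell types moved less closely with the 10 genes than macrophage genes did. Adipocyte markers ran opposite except for Lep, with a median r with the mean of the 10 of -0.867. Lep had an r of 0.478 and its lowest level, 2134 TPM, in WT mouse 4. Of the adipocyte markers, 8 of 8 had negative log2 changes, with a median of -0.26 (-0.21 without WT mouse 4, with 1 positive). Their summed level was 9228 to 12982 TPM in AKO and 9683 to 16029 TPM in WT. WT mouse 4 had the highest mean log2(TPM + 1) of adipocyte markers, 10.1, against 9.15 to 9.72 in AKO mice and 9.22 to 9.87 in the other WT mice. The lipid droplet gene Plin1 had 779.9 ± 88.2 TPM in AKO and 989 ± 174 TPM in WT (log2 change -0.33). It was the 1 adipocyte marker with lower values at an unadjusted limma p below 0.05, where 307 of all 14172 genes tested were lower. Since TPM values of a library share 1 total, a larger part of adipocyte RNA lowers the value of every other gene, and this part was not tested. Resident macrophage markers had negative log2 changes for 4 of 5 tested genes (median -0.48, -0.51 without WT mouse 4, summed 291 to 419 TPM in AKO and 307 to 455 TPM in WT). Lyve1, a receptor gene of resident macrophages, had 20.4 ± 6.89 TPM in AKO and 30.6 ± 5.33 TPM in WT, F13a1 46.4 ± 11.6 TPM in AKO and 66.2 ± 14.7 TPM in WT and Cbr2 56.0 ± 10.4 TPM in AKO and 79.4 ± 20.5 TPM in WT, while Folr2 was positive at 204 ± 68.8 TPM in AKO and 156 ± 44.5 TPM in WT. Lyve1, F13a1 and Cbr2 had lower values at an unadjusted limma p below 0.05, where 307 of all 14172 genes tested did. Of the 5, 0 passed the FDR threshold, and Timd4, also listed, did not pass the filter on low values.

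Median log2 changes of the remaining marker lists were -0.04 (2 of 5 positive) for monocytes, 0.15 (4 of 5 positive) for dendritic cells, 0.14 (2 of 3 positive) for neutrophils, 0.22 (4 of 4 positive) for T cells, 0.46 (2 of 2 positive) for B cells, 0.75 (4 of 4 positive) for mast cells, 0.32 (6 of 6 positive) for fibroblasts and progenitors, -0.10 (1 of 4 positive) for endothelium, -0.00303 (2 of 4 positive) for mesothelium and 0.28 (5 of 5 positive) for proliferation. The summed level of mast cell markers was 26.9 to 68.3 TPM in AKO and 18.7 to 37.7 TPM in WT, and that of proliferation markers 54.7 to 104 TPM in AKO and 27.9 to 119 TPM in WT, and their part in the results was not tested. None of their genes or of the adipocyte genes passed the FDR threshold in limma. Those of these lists with an unadjusted p under 0.05 and a higher mean in AKO were Cd79a (2.72 ± 0.919 TPM in AKO and 1.44 ± 0.300 TPM in WT), Ccr7 (1.81 ± 0.295 TPM in AKO and 1.15 ± 0.374 TPM in WT), Cma1 (13.2 ± 7.38 TPM in AKO and 6.28 ± 3.12 TPM in WT) and Dcn (963 ± 137 TPM in AKO and 763 ± 54.6 TPM in WT). Without WT mouse 4 the medians were -0.16 for monocytes, 0.14 for dendritic cells, 0.04 for neutrophils, 0.28 for T cells, 0.53 for B cells, 0.38 for mast cells, 0.20 for fibroblasts and progenitors, -0.00393 for endothelium, -0.22 for mesothelium and -0.03 for proliferation, whose sign turned. Epididymis genes had a summed level of 0, 0.0800, 0 and 0.590 TPM in AKO mice 3, 8, 9 and 11, against 0.120, 4.46, 7.57 and 0.0600 TPM in WT mice 2, 3, 4 and 5, and 0 of 4 passed the filter. The highest sums were thus in WT mice 3 and 4, the mice whose omission moved the median log2 change of the 10 genes most, but in opposite directions. That median was 1.17 with all 8 mice, 1.61 without WT mouse 3 and 0.56 without WT mouse 4. The part of epididymal tissue was not tested.

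Among rows of the 10 genes that held 5% to 95% of their gene, the shares overlapped between groups except in Gpnmb. Several of the 10 genes are spread over more than 1 row of the tables, numbered here in file order, and the transcript behind a row is not named. Atp6v0d2 lay wholly in 1 row, and rows 1, 4 and 2 of Trem2 held 43.3% to 49.9%, 38.3% to 44.4% and 9.71% to 10.6% in AKO mice, with overlapping shares in WT mice. Row 3 of Gpnmb held 5.34%, 5.71%, 5.98% and 4.11% of the gene in AKO mice 3, 8, 9 and 11, against 7.57%, 8.21%, 8.33% and 10.5% in WT mice 2, 3, 4 and 5, so that the groups did not overlap. In TPM that row had 53.8, 43.1, 81.8 and 25.4 in AKO and 36.8, 84.5, 6.82 and 32.8 in WT. The main row of Gpnmb took up the difference, at 93.2% to 95.1% in AKO and 88.4% to 91.7% in WT. Of 12 rows of the 10 genes that held 5% to 95% of their gene, these 2 had shares that did not overlap between groups, and 3.11% of such rows over all genes tested had non-overlapping shares. Since the rows of a gene add up to its whole, these are 1 observation, chosen after its values were seen, and it was not tested.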

How the data were processed

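Each library has 1 table of 152298 rows with a gene identifier and a value in TPM, as deposited. These deposited TPM values are scaled so that each library sums to 1000000 within rounding, which limits comparisons to shares of the RNA. Flash-frozen fat, Trizol extraction and an Illumina TruSeq kit are given per the labels' protocols. Per the submitters' processing notes, HISAT2, DESeq2 and mm9 were used, in roles that are not stated. The quantifier and its annotation: not given in the sources used here. The build of the promoter windows (GRCm38.p6) differs from mm9, so they were matched by symbol only. Gene names came from GENCODE M21, matching 55141 of 55487 identifiers. Another 401 rows without a gene identifier (0.605% to 0.943% of TPM) were left out.

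Rows were summed per gene. The 14172 genes that reached 1 TPM in 4 or more mice were tested with limma (version 3.58.1, R 4.3.3) with a mean-variance trend on log2(TPM + 1), all 8 mice in 1 fit, with Benjamini-Hochberg adjustment and an FDR threshold of 0.05. This scale understates changes of low genes. The fit was tested on simulated data. Exact permutation tests (SciPy 1.17.1) used all 70 arrangements, whose smallest possible p is 0.0286. Each library is labelled as a mouse of its own. Exact permutation p-values rest on the values of these mice alone. In limma, each gene's variance among these mice is drawn toward a trend over all genes tested. The limma p-values and intervals therefore do not rest on a gene's own spread alone.

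Named were the 10 genes, Slc16a1, up to 3 genes per list with the smallest p, and the 8 genes most like the 10 (highest r on group-centred values, mean log2 of at least 3, predicted genes left out). The 10 genes and all lists were chosen with earlier results of these data known. Alternatives were a pseudocount of 0.1, no filter, each gene's highest row alone, median-ratio scaling, sample quality weights and leaving out each mouse. List medians without WT mouse 4 were added after the data were seen. No count test was run, since TPM values are not counts.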

Additional observations from a re-analysis of the deposited data

How the results depend on the processing

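The log2 changes of the 10 genes stayed above 0 under all 13 alternatives (130 of 130 values), and 0 passed an FDR of 0.05 in limma, with FDR values from 0.323 to 0.9999. Their median lay between 0.56 without WT mouse 4 and 1.61 without WT mouse 3. Sample quality weights gave 8 of 10 an unadjusted p below 0.05, against 3 with equal weights. Over all 14172 genes tested, 880 had higher values at that p with these weights, against 366 with equal weights. The limma FDR with weights was 0.514 for each of the 10 but Lgals3, at 0.520. The cause was not tested. Over all genes, 3 were called higher and 1 lower, 5 were called higher with a pseudocount of 0.1, and leaving out 1 mouse gave 1 to 3 higher (1 on leaving out AKO mouse 3 or 11 or WT mouse 2) and 0 to 2 lower (0 without AKO mouse 3, 2 without WT mouse 4). Median-ratio scaling gave the 10 genes a median of 1.16. The median r of the 45 pairs lay between 0.962 and 0.984 under 11 alternatives. No paired analysis was possible because the groups share 1 replicate number. TPM keeps no depth, so counting error is unknown.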

Other observations

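Genes that ran opposite to the 10 lipid-associated genes were looked up after the values were seen, by the same measure (lowest r on group-centred values over 8 mice, mean log2 of at least 3). Among the lowest were Dok4, Slc25a35, Ermp1, Pcmtd1, Cdsn, Gpam and Tmem43, with r between -0.993 and -0.979. Gpam, which encodes a mitochondrial enzyme that starts glycerolipid synthesis, had 40.8 ± 5.66 TPM in AKO and 54.9 ± 13.6 TPM in WT (SD, n = 4), and a limma FDR of 0.831. The r over 6 mice, without WT mouse 4 and AKO mouse 9, was taken on values not centred on group means. For Gpam it was -0.985, beside -0.987 over 8 mice in that same form. Slc25a35, a mitochondrial carrier gene, had 15.8 ± 2.23 TPM in AKO and 22.1 ± 6.42 TPM in WT. Its r without centring was -0.992 over those 6 mice and -0.994 over 8. For Dok4 the r without centring was -0.575 over those 6 mice and -0.833 over 8, with 10.6 ± 0.804 TPM in AKO and 10.9 ± 2.44 TPM in WT. Over all genes tested, 6.29% had an r of at least 0.9 with the mean of the 10 and 1.85% an r of at most -0.9.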
